A study of Mus musculus with 2 samples.

Results

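The genes described here encode carriers and pumps that move organic anions, organic cations, conjugates, sterols and drugs across membranes. They were taken as every gene whose symbol starts with Slc22a, Slco, Slc47a, Abcb, Abcc or Abcg in the array annotation, from probe sets that list exactly 1 gene symbol. The rule found 61 genes with 110 probe sets, of 18193 genes and 45101 probe sets in all. One further probe set that lists 2 symbols of these families was left out.

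Glomeruli were sieved from the kidneys of male C57BL/6J mice, and total RNA was hybridised to 2 arrays, 1 per genotype. The double knockout carried floxed alleles of GC-A and of p38 (fl/fl at both loci) and Nephrin-Cre as Cre/+, so that Cre was made under the promoter of a podocyte gene. The floxed control carried the same floxed alleles with Nephrin-Cre as +/+, read here as no Cre allele. Mice of both genotypes were 2 months old and had received a 6% NaCl diet and 0.2 µg of aldosterone per kg and minute from a minipump for 3 weeks, so no array of unloaded mice enters this comparison. The comparison asks how glomerular transcripts differ between the genotypes under this load. The number of mice behind each array is not given in the sources used here. With 1 array per genotype no test could be made and no difference below has a replicate check, so "higher" and "lower" describe the double knockout array against the floxed control array.

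Members of the Slc22a family take up organic ions from blood at the basolateral side of kidney epithelium or exchange them with urine at the apical side, and Slc47a carriers move cations into urine in exchange for protons. Slco genes encode organic anion transporting polypeptides, which carry bile acids, hormones, prostaglandins and drugs. The Abcb, Abcc and Abcg genes encode ATP-driven pumps, subunits of channels and intracellular transporters. In the kidney many of these proteins are best known from the proximal tubule, where uptake by Slc22a carriers and efflux by Slc47a and ABC proteins together clear drugs and metabolites. Some of them, such as the prostaglandin carrier Slco2a1 and the P-glycoprotein Abcb1a, are also known from blood vessels.

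Signals are MAS5 intensities in arbitrary units, used as deposited. A gene was counted as measured where its higher signal reached a floor of 52.7, which is the 40th percentile of signals, averaged over both arrays, and lower signals were raised to that floor. Npr1, the gene of GC-A, stood at 102 in the double knockout, against 167 in the floxed control, and Mapk14, which encodes 1 form of p38 (p38α), at 2607 in the double knockout, against 2628 in the floxed control. Which p38 gene was floxed, and where these probe sets lie relative to the floxed exons, is not given in the sources used here, so they check nothing about the deletion. Both arrays carried glomerular markers, as the labelled tissue implies, and also tubule markers. The 12 measured podocyte markers had a summed signal of 99771 in the double knockout, against 73884 in the floxed control, with a median log2 difference of 0.61. The 24 measured proximal tubule markers had a summed signal of 215441 in the double knockout, against 346024 in the floxed control, with a median log2 difference of -0.77 and 23 of 24 below 0. Markers of loop, distal tubule and collecting duct had a similar median of -0.75, with 15 of 15 below 0. Their summed signal was 45317 in the double knockout, against 64706 in the floxed control. Podocyte, glomerular endothelial and mesangial markers together had a median of 0.65 (1 of 38 below 0), and macrophage markers a median of 0.89 (0 of 12 below 0). None of the markers with a probe set was below the floor on both arrays.

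In RNA of sieved glomeruli, fewer cells of a type and less RNA per cell cannot be told apart. The part of these marker shifts in the differences of the transporter genes was not tested, and differences are also given recentred on each marker set. Recentring on the glomerular markers subtracts 0.65 from every log2 difference, and recentring on the proximal tubule markers adds 0.77 to it. These shifts move the median of all measured genes, 0.07 as deposited, to -0.59 and 0.84. A gene between -0.77 and 0 therefore turns above 0 after the tubule recentring, and one between 0 and 0.65 turns below 0 after the glomerular one.

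Of the 61 transporter genes, 48 were measured, 44 of them at or above the floor on both arrays. Of these 48 genes, 10 (20.8%) were at least 2-fold lower in the double knockout, against 2.87% of all measured genes, and 1 gene (2.08%) was at least 2-fold higher, against 3.53%. Recentred on glomerular markers the counts were 26 lower and 0 higher (19.2% and 0.489% of all genes), and recentred on proximal tubule markers they were 0 lower and 8 higher (0.143% and 35.1%). The median log2 difference was -0.37, beside 0.07 for all measured genes, and it was -1.03 and 0.40 after the glomerular and the proximal tubule recentring. A difference below 0 was seen in 37 of 48 members (77.1%) and in 43.9% of all genes, and in 43 and 17 members after the recentrings. With a rule of 1.5-fold, 22 members were lower (10.0% of all genes) and 5 higher (13.7%). The 10 lower genes were Slc22a29, Slc22a18, Slc22a22, Abcc2, Slc22a8, Slc22a30, Slco1a6, Slco2b1, Slc22a2 and Slc47a1, and the higher gene was Abcc3. All 10 lower genes were below 0 under each of the 13 other settings, and Abcc3 was above 0 under each. Most of these settings could not have turned them. The 2 recentrings and the median and 75th percentile centrings shift every gene by less than 2-fold. These genes were picked for at least 2-fold. Another floor, no floor or 32 added to every signal cannot reverse a direction. The choice of probe set could change only Slc22a18, Slc22a8 and Slco2b1, as the others had 1 set each.

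**Figure D1:**
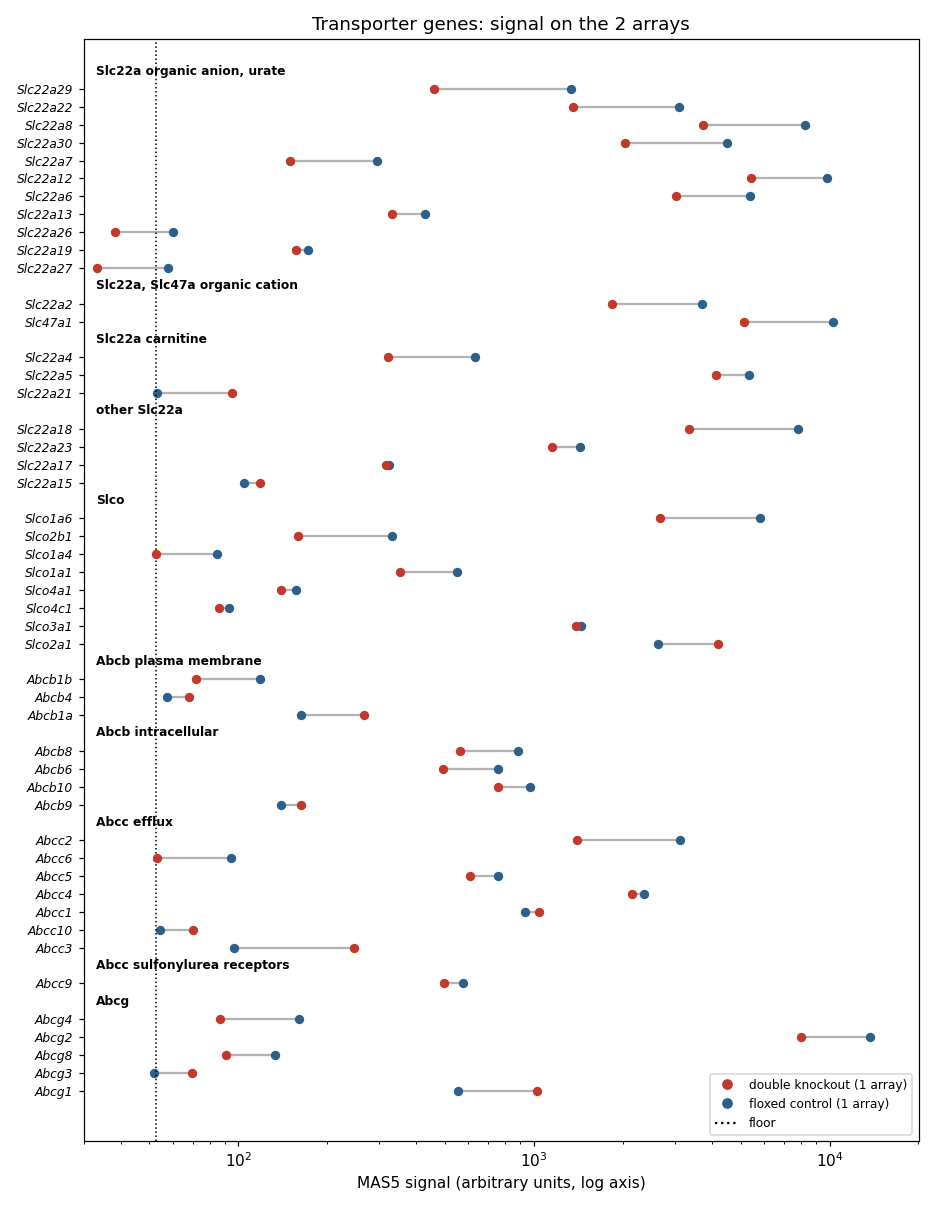
Signal of each of the 48 measured transporter genes (rows, grouped by role) on the double knockout array (red) and the floxed control array (blue), in arbitrary units on a log axis, with the floor of 52.7 dotted. The red points of all Slc22a anion and organic cation carriers lie left of their blue points, while those of Abcc3, Abcg1, Slco2a1, Abcb1a and Slc22a21 lie to the right, and signals of different genes cannot be set against each other.

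The lower genes were mostly bright ones. Among the 19 members with a signal of at least 1000 on 1 array or both, 9 were at least 2-fold lower and 0 at least 2-fold higher (4.51% and 2.84% of all 4963 genes that bright), and their median log2 difference was -0.85, beside 0.00 for all such genes. Among 13 members between 200 and 1000, 1 was at least 2-fold lower (2.24%) and 1 at least 2-fold higher (4.24%). Of 16 members under 200, none passed 2-fold in either direction (1.34% lower and 3.44% higher over all genes), and their median was -0.14. With a signal this near the floor a 2-fold difference cannot always be seen.

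**Figure D2:**
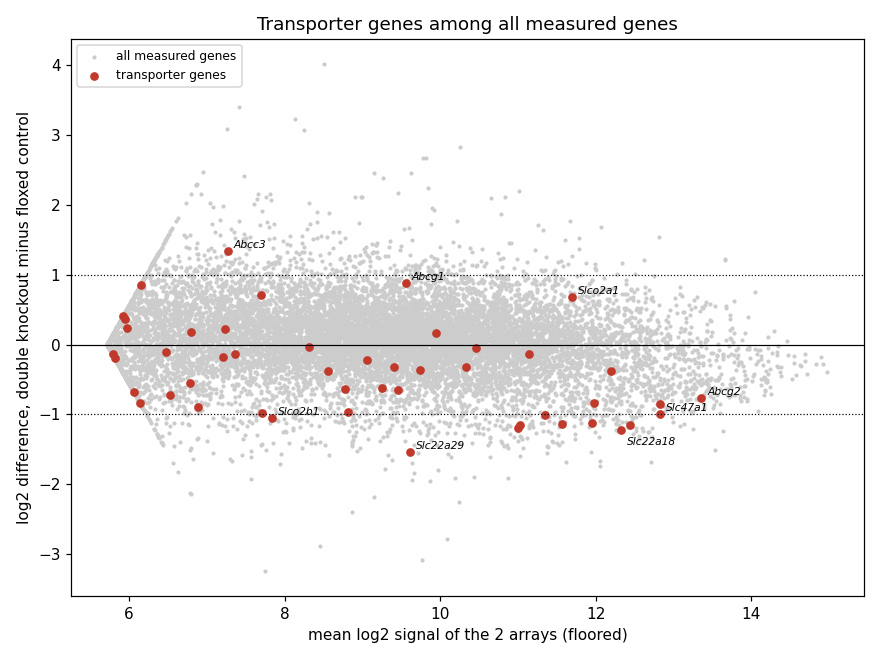
Log2 difference (double knockout minus floxed control) against the mean log2 signal of the arrays, for all 13290 measured genes (grey) and the 48 measured transporter genes (red), with 2-fold lines dotted. Of the 19 transporter genes with a signal of at least 1000, 9 lie on or below the lower line, and the edge of points at the left is set by the floor.

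The organic anion carriers of the Slc22a family were lower throughout. All 11 measured genes were below 0, with a median log2 difference of -0.85, and 4 of 11 were at least 2-fold lower. Over all measured genes, 43.9% were below 0 and 2.87% at least 2-fold lower. Recentred on proximal tubule markers, 7 of 11 were below 0 and the median was -0.08, and recentred on glomerular markers all 11 were below 0 with a median of -1.50. The promoters of Slc22a6 and Slc22a8, the pair of neighbouring genes that encode the basolateral uptake carriers Oat1 and Oat3, and of Slc22a29, which had the lowest difference of all members, are shown here because each holds GTTAAT or its complement ATTAAC (capitals), the core of sites bound by the factor HNF1, which is known to drive Slc22a6 and Slc22a8. The promoter of Slco2a1, a bright member with a higher signal in the double knockout, is shown beside them and, like most promoters, has no such match. As these genes were picked by match and by difference, they cannot show whether match and difference go together. The sequences are RefSeq windows of 300 bases on GRCm38.p6, 250 before to 50 after the start, 5′ to 3′ on the gene's strand.

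Slc22a6, chr19:8617746-8618045, plus strand: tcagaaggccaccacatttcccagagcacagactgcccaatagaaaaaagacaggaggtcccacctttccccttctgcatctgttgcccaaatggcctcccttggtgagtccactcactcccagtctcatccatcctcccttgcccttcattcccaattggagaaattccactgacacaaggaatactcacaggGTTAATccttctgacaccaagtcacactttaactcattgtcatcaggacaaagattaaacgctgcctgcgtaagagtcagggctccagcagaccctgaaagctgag
Slc22a8, chr19:8592932-8593231, plus strand: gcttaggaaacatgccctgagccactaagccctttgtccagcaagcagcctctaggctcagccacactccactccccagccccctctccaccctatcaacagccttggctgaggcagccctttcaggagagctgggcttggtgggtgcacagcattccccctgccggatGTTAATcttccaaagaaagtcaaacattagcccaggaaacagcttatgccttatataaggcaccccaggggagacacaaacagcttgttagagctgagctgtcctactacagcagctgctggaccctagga
Slc22a29, chr19:8218851-8219150, minus strand: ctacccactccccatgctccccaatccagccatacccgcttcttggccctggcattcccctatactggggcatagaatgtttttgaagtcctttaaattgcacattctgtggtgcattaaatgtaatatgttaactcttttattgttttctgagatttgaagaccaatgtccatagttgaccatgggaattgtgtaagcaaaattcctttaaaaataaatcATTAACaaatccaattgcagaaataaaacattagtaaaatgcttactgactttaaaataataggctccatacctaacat
Slco2a1, chr9:103008237-103008536, plus strand: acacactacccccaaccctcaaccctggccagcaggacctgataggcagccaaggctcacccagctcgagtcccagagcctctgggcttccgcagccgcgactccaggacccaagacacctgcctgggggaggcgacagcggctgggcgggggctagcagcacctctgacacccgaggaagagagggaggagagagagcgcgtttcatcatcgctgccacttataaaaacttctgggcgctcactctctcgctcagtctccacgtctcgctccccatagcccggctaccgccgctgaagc

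The matches begin 56 bases before the start of Slc22a6, 81 before that of Slc22a8 and 29 before that of Slc22a29. Promoter windows were found for 49 of the 61 members (59 windows). On either strand, GTTAAT was in 4 of these 59 windows (6.78%) and in 7.10% of all 32851 windows, so its share among the members was near that of promoters at large. It was in 2 of the 9 genes at least 2-fold lower that had a window. CAAAGTCCA, a site of the factor HNF4, was in 0 of 59 member windows and in 0.475% of all, and TGACNNNGC, the core of the antioxidant response element, was in 10 of 59 (16.9%) and in 12.4% of all. A match is only a match of letters, and its absence covers only these 300 bases.

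Slc22a6 gave a signal of 3017 in the double knockout, against 5390.5 in the floxed control (1.79-fold lower). A second Slc22a6 probe set read 496 in the double knockout, against 1270.4 in the floxed control, a log2 difference of -1.36 beside -0.84 for the brighter set. Slc22a8 read 3731 in the double knockout, against 8264 in the floxed control (2.21-fold lower), and its other probe set 199.6 in the double knockout, against 404 in the floxed control (-1.02 on the log2 scale). The probe sets of both uptake carriers thus read lower in the double knockout, and both genes stayed below 0 under each setting tried. After proximal tubule recentring, however, Slc22a6 stood at only -0.07, and Slc22a8 at -0.38.

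Slc22a12, the apical exchanger that reabsorbs urate (known as URAT1 in human), read 5427 in the double knockout, against 9783.5 in the floxed control (1.80-fold lower), and its second probe set gave a log2 difference of -0.92. Slc22a7, which encodes the carrier Oat2, read 149 in the double knockout, against 294 in the floxed control (1.97-fold lower), just short of the 2-fold rule. Slc22a22, a mouse kidney carrier of prostaglandins, read 1357 in the double knockout, against 3094 in the floxed control (2.28-fold lower).

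Slc22a30 and Slc22a29 belong to a cluster of related mouse genes on chromosome 19. Slc22a30 read 2039 in the double knockout, against 4506 in the floxed control (2.21-fold lower). Slc22a29 read 459.8 in the double knockout, against 1334 in the floxed control (2.90-fold lower), but its sole probe set is of a type marked as able to cross-hybridise, so its signal may hold RNA of relatives. The other 4 genes of the list lay between -0.37 and -0.14 on the log2 scale. They were Slc22a13, Slc22a19, Slc22a26 and Slc22a27, and the last 2 had a double knockout signal below the floor.

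The organic cation pathway was represented by its uptake and its efflux step. Slc22a2, the basolateral cation carrier Oct2, read 1837 in the double knockout, against 3694 in the floxed control, and Slc47a1, the apical proton exchanger Mate1, read 5117 in the double knockout, against 10247 in the floxed control. They were 2.01-fold and 2.00-fold lower, barely past the rule, and stood at -0.24 and -0.23 after proximal tubule recentring. Both Slc22a2 and Slc47a1 were under 2-fold lower after quantile normalization (-0.99 and -0.83), after removal of a loess trend (-0.99 and -0.79) and with 32 added to every signal instead of a floor (-0.995 and -0.997).

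Among the carnitine carriers, Slc22a4 (Octn1, also a carrier of ergothioneine) read 321 in the double knockout, against 629 in the floxed control (1.96-fold lower), and Slc22a5 (Octn2, the high-affinity carnitine carrier) read 4136 in the double knockout, against 5354 in the floxed control (1.29-fold lower, with -0.53 on the log2 scale in its other probe set). Slc22a21, which encodes the mouse carrier Octn3, went the other way with 95.5 in the double knockout, against 53.1 in the floxed control (1.80-fold higher), its floxed control signal lying at the floor. These 3 genes are neighbours on chromosome 11. Slc22a5 turned to 0.40 after proximal tubule recentring, while Slc22a4 stayed below 0 (-0.20) and Slc22a21 stayed above 0 after glomerular recentring (0.19).

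Of the remaining Slc22a genes, Slc22a18, an imprinted gene of the family, had the second lowest difference of all members, with 3345 in the double knockout, against 7801 in the floxed control (2.33-fold lower). Its second probe set read 1615 in the double knockout, against 4012 in the floxed control, a log2 difference of -1.31. Slc22a23 read 1147 in the double knockout, against 1436 in the floxed control (1.25-fold lower) and Slc22a15 read 119 in the double knockout, against 104 in the floxed control (1.14-fold higher), differences that turn round after proximal tubule and glomerular recentring. Slc22a17, known as a cell surface receptor of lipocalin-2, read 315 in the double knockout, against 323 in the floxed control, a log2 difference of -0.03.

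**Figure D3:**
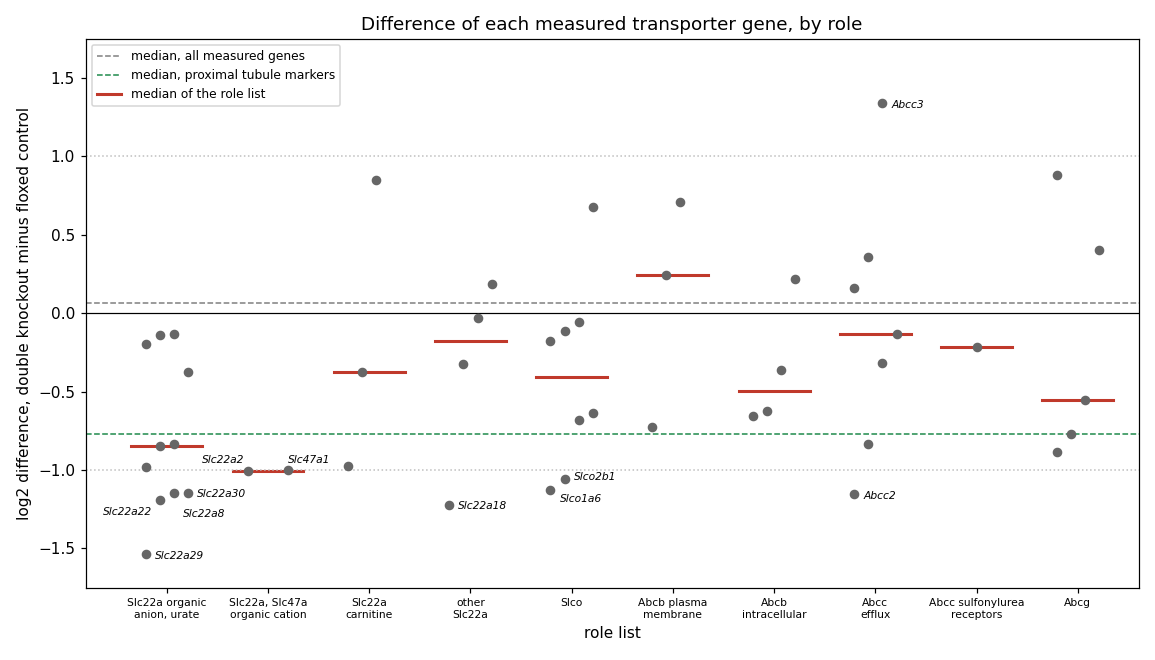
Log2 difference (double knockout minus floxed control) of each measured transporter gene, by role list, with the list median in red, the median of all genes (0.07) dashed grey and that of proximal tubule markers (-0.77) dashed green and 2-fold lines dotted. All 11 Slc22a anion carriers lie below 0, 7 of them below the green line, while the Slco, Abcc and Abcg lists spread to either side of 0.

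The Slco genes, organic anion transporting polypeptides, split by member. Of 8 measured genes 7 were below 0 (2 of 8 after proximal tubule recentring), with a median of -0.41, and 2 were at least 2-fold lower (2.87% of all genes). A floor at the 25th percentile gave a median of -0.11 and no floor gave -0.18, settings that add dim Slco genes. Slco1a6, a carrier of the kidney-expressed Slco1a group, read 2670.4 in the double knockout, against 5832 in the floxed control (2.18-fold lower). Slco2b1 read 159 in the double knockout, against 330.4 in the floxed control (2.08-fold lower) and its other measured probe set 153 in the double knockout, against 292 in the floxed control (-0.93 on the log2 scale). Slco2b1 was under 2-fold lower with the floor at the 60th percentile (-0.87), with 32 added to every signal (-0.92), with its probe sets averaged (-0.99) and without cross-hybridising sets (-0.93). Slco1a1, a carrier of steroid conjugates in mouse liver and kidney, read 352 in the double knockout, against 547 in the floxed control (1.56-fold lower, with -0.54 in its second probe set), and Slco1a4 read 52.5 in the double knockout, against 84.5 in the floxed control and was at least 1.61-fold lower, since its double knockout signal was below the floor.

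Slco2a1, the prostaglandin carrier, was the one Slco gene above 0. The brightest of its sets stood at 4194 in the double knockout, against 2624 in the floxed control (1.60-fold higher), and the other 3 sets gave log2 differences of 0.70, 0.93 and 0.96. All 4 Slco2a1 probe sets therefore read higher in the double knockout. After glomerular recentring the brightest Slco2a1 set was at 0.02, and the other 3 sets, each with a larger difference, were further above 0. Slco3a1, Slco4a1 and Slco4c1 lay between -0.18 and -0.06 on the log2 scale, and another Slco4a1 probe set was at 0.11.

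The plasma membrane Abcb pumps showed no common direction. Abcb1a, which encodes a P-glycoprotein that exports drugs, read 266 in the double knockout, against 163 in the floxed control (1.64-fold higher), and its second probe set gave a log2 difference of 0.82. Its close relative and neighbour Abcb1b read 71.7 in the double knockout, against 119 in the floxed control (1.66-fold lower), and its difference stood at 0.04 on the log2 scale after proximal tubule recentring. Abcb4, a flippase of phosphatidylcholine and the third gene of this cluster on chromosome 5, read 68.1 in the double knockout, against 57.5 in the floxed control (1.18-fold higher). Probe sets of Abcb1a and Abcb1b could share RNA, and the second Abcb1b set, below the floor on both arrays, was not used.

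The intracellular Abcb transporters were lower in 3 of 4 genes, though none of the 4 was below 0 after proximal tubule recentring. Abcb8, a mitochondrial transporter linked to iron, read 562 in the double knockout, against 884 in the floxed control (1.57-fold lower), with -0.68 on the log2 scale in its second probe set. Abcb6, which is linked to porphyrin transport, read 491 in the double knockout, against 758 in the floxed control (1.54-fold lower). Abcb10, a mitochondrial protein needed for heme synthesis, read 754 in the double knockout, against 968 in the floxed control (1.28-fold lower) and its other probe sets were at -0.45 and -0.67. Abcb9, a lysosomal peptide transporter, was at 0.22, with its other probe sets at -0.09 and -0.05.

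The Abcc efflux pumps held the largest difference in each direction among the Abcb, Abcc and Abcg genes. Abcc2, the apical export pump for glutathione and glucuronide conjugates, read 1401 in the double knockout, against 3116 in the floxed control (2.22-fold lower). Abcc3, a pump of related substrates that sits at basolateral membranes, read 245 in the double knockout, against 97.0 in the floxed control (2.53-fold higher). Each has 1 probe set, so no second set bears on either value. The Abcc2 set has the suffix _s_at, a type that may also cross-hybridise. The setting without cross-hybridising sets kept it, as Abcc2 has no other. After glomerular recentring Abcc3 stood at 0.69 and after proximal tubule recentring Abcc2 stood at -0.38. Both kept their direction, as any gene past 2-fold must under these shifts. Abcc3 was then no longer past 2-fold, and with the floor at the 60th percentile no member was at least 2-fold higher.

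Abcc4 and Abcc5 are known to export cyclic nucleotides, cGMP among them, and GC-A makes cGMP. Abcc4 read 2149 in the double knockout, against 2357 in the floxed control (1.10-fold lower). Abcc5 read 607 in the double knockout, against 755 in the floxed control (1.24-fold lower) in its brightest probe set, but its 7 other measured probe sets ran from -0.44 to 0.69 on the log2 scale, so no direction can be given for it. Abcc6, a protein involved in cellular ATP release, read 52.8 in the double knockout, against 94.2 in the floxed control (1.78-fold lower), close to the floor. Abcc1, an exporter of leukotriene C4 and glutathione conjugates, and Abcc10 were at 0.16 and 0.36, and both turned round after glomerular recentring. Abcc9, the sulfonylurea receptor that forms KATP channels in vessels, read 497 in the double knockout, against 577 in the floxed control (1.16-fold lower), with its other probe sets at -0.31 and 0.09.

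Among the Abcg genes, Abcg2, a pump of urate and drugs at apical membranes, read 8016 in the double knockout, against 13672.5 in the floxed control (1.71-fold lower), and after proximal tubule recentring its difference was 0.00. Abcg1, which exports cholesterol from macrophages and other cells, read 1022 in the double knockout, against 555 in the floxed control (1.84-fold higher). Its second probe set read 183 in the double knockout, against 128 in the floxed control (0.51 on the log2 scale), and the first stood at 0.23 after glomerular recentring. Macrophage markers, 0 of 12 below 0, were also higher in the double knockout, and their part in the Abcg1 difference was not tested. Abcg4, a relative of Abcg1, read 86.8 in the double knockout, against 161 in the floxed control (1.85-fold lower). Its other probe set, below the floor on both arrays and higher in the double knockout, was not used. Abcg8, a partner in sterol export, was at -0.55, and Abcg3 was at least 1.32-fold higher with a floxed control signal below the floor.

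The measured probe sets of a member gene gave the same direction where the difference was large. Of the 27 members at least 1.5-fold different, 10 had another measured probe set, and all 12 such sets read in the direction of the set used. Sets below the floor on both arrays were left out. Those of Abcg4 (40.7 in the double knockout, against 23.9 in the floxed control) and Abcb1b (34.1, against 20.3) went the other way. That of Slco2b1 (2.66, against 6.44) went the same way. The share over all genes at least 1.5-fold different was not counted, so this is not a result particular to the members. Over all measured members with a second measured set, the brightest such set had the same direction in 16 of 20 genes (80.0%), beside 75.3% over 6418 genes of the arrays. These sets were read from the same RNA, so they bear on the probes and not on differences between mice.

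**Figure D4:**
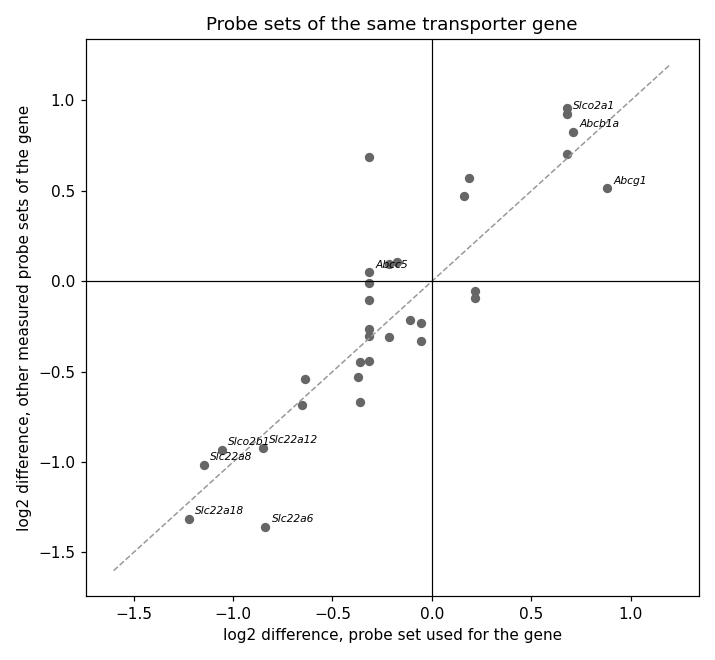
Log2 difference (double knockout minus floxed control) of each other measured probe set of a transporter gene (vertical axis) against that of the probe set used for the gene (horizontal axis), with the line of equality dashed. Slc22a6, Slc22a8, Slc22a18, Slc22a12 and Slco2b1 lie at lower left, and Slco2a1, Abcb1a and Abcg1 at upper right, and the points of Abcc5 stand in 1 column that crosses 0.

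Members that neighbour each other in the RefSeq order of protein-coding genes on GRCm38.p6 (at most 4 genes between them) were set side by side. These genes were already counted in the role lists above. The chromosome 19 group of Slc22a19, Slc22a26, Slc22a27, Slc22a29, Slc22a30, Slc22a8 and Slc22a6 had all 7 genes below 0, from -1.54 to -0.14. Over all measured genes 43.9% were below 0. After proximal tubule recentring Slc22a19, Slc22a26 and Slc22a27 turned above 0 (0.63, 0.57 and 0.63), and the others of the group stayed below. The Slco1a genes of chromosome 6 had 3 measured genes, Slco1a1, Slco1a4 and Slco1a6, all below 0, from -1.13 to -0.64. After the same recentring Slco1a1 and Slco1a4 turned to 0.13 and 0.09, while Slco1a6 stayed below 0 (-0.36). By contrast the groups on chromosomes 5 (Abcb1a, Abcb1b and Abcb4) and 11 (Slc22a4, Slc22a5 and Slc22a21) held genes on either side of 0. Genes of the first 2 groups are similar in sequence, and signal shared between their probe sets was not tested.

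The other 13 members were below the floor on both arrays, with signals between 2.61 and 52.3, and no difference is given for them. They were Abcb11, the bile salt pump, Abcc8, the sulfonylurea receptor of beta cells, Abcc12, Abcg5, Slc22a14, Slc22a16, Slco1a5, Slco1b2, Slco1c1, Slco5a1, Slco6b1, Slco6c1 and Slco6d1. Several of these are known mainly from liver, brain or testis.

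Genes that work beside the transporters were taken from lists of their own. Of 15 measured organic solute carriers from other families, 13 were below 0 (9 after proximal tubule recentring), with a median of -0.88, and 6 were at least 2-fold lower (2.87% of all genes) and none at least 2-fold higher (3.53%). These were Slc51b, a subunit of the basolateral bile salt and steroid carrier (2.71-fold), Slc10a2, the apical bile acid carrier (2.55-fold), the citrate carrier Slc13a2 (2.40-fold), Slc16a9 (2.37-fold), the monocarboxylate carrier Slc5a8 (2.23-fold) and the peptide carrier Slc15a2 (2.13-fold). Slc15a2 read 1168 in the double knockout, against 2482 in the floxed control, and Slc51b 223 in the double knockout, against 603 in the floxed control.

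Of 12 measured regulators and scaffolds, 8 were below 0 (3 after proximal tubule recentring) with a median of -0.44, none was at least 2-fold lower (2.87% of all genes) and 1 at least 2-fold higher (3.53%). This single gene was Ahr, the aryl hydrocarbon receptor, a sensor of foreign compounds, with 859 in the double knockout, against 428 in the floxed control (2.01-fold). Nr1h4, the bile acid receptor FXR, read 912 in the double knockout, against 1799 in the floxed control (1.97-fold lower), and Pdzk1, a scaffold that anchors apical carriers such as Slc22a12, read 6480.1 in the double knockout, against 12243 in the floxed control (1.89-fold lower). Hnf4a, named after its value was seen because its site was searched for above, read 3938 in the double knockout, against 6077 in the floxed control (1.54-fold lower).

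Of 19 measured ABC genes outside the 3 families, 9 were below 0 (17 after glomerular recentring), with a median of 0.12, 1 at least 2-fold lower (2.87% of all genes) and none at least 2-fold higher (3.53%). Abca8a read 144 in the double knockout, against 427 in the floxed control (2.97-fold lower), Abcd4, involved in vitamin B12 transport from lysosomes, was 1.73-fold lower and Abca2 1.68-fold higher. The pores that pair with sulfonylurea receptors read 109 in the double knockout, against 177 in the floxed control for Kcnj8 (1.62-fold lower) and 1061 in the double knockout, against 864 in the floxed control, for Kcnj11 (1.23-fold higher).

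**Figure D5:**
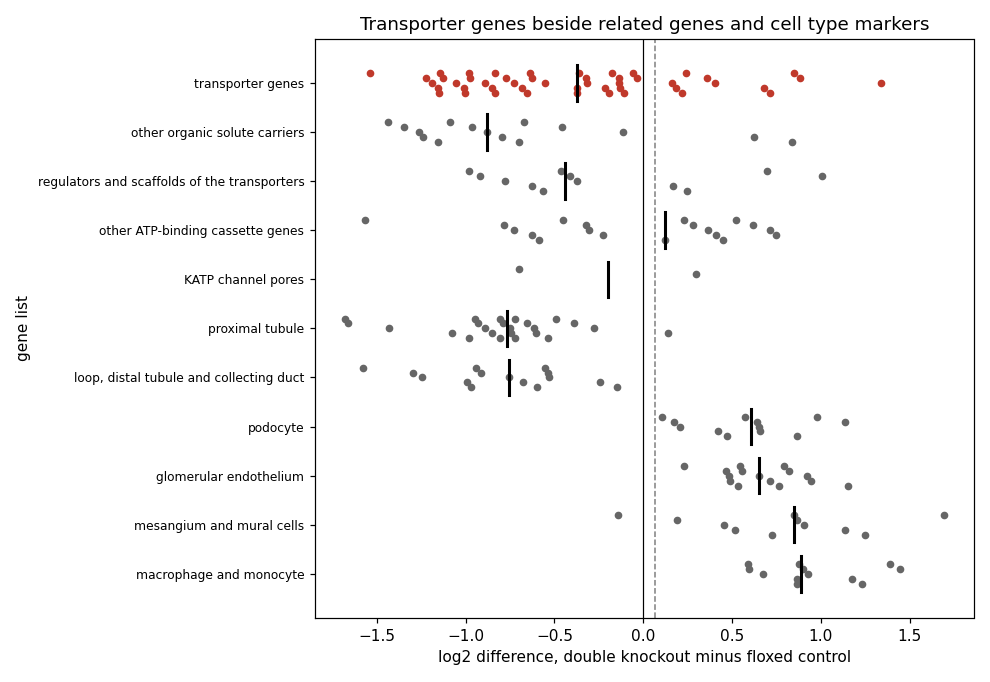
Log2 differences (double knockout minus floxed control) of the measured genes of each list, with list medians as black bars and the median of all genes (0.07) dashed. The 48 transporter genes (red) spread from -1.54 to 1.34. Their median of -0.37 lies between the medians of the tubule marker lists (-0.77 and -0.75) and those of the glomerular and macrophage lists (0.61 to 0.89).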

How the data were processed

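Total RNA of sieved glomeruli was hybridised as biotinylated cRNA to 2 arrays, 1 per genotype. For every probe set of an array the authors deposited a linear intensity, which per the submitters' processing notes came from MAS5 (version not given here). Arrays are scaled by MAS5 to a common mean, and the mean after trimming 2% at each end was 500.0 on both arrays over 45101 probe sets. Values are thus relative within a sample. Precision is limited by the number of arrays. Detection calls were not used here.

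Control probe sets (64) were dropped. Of the others, 34945 listed 1 gene symbol in the platform annotation, 932 several and 9160 none. Each of the 61 member genes matched the RefSeq table of GRCm38.p6 under the same symbol. Each gene took its brightest probe set by mean log2 signal, and one with the suffix _x_at (may cross-hybridise) only if it had no other. There were 18193 genes, of which 13290 reached the floor of 52.7 on 1 array or both. Differences are log2 of the double knockout minus log2 of the floxed control, and a fold against a signal below the floor is a lower bound. No p-value was computed.

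The text names members at least 1.5-fold different and, per role list, the 3 with the largest difference and the 2 with the brightest signal. This took 34 of the 48 measured members, and the other 14 (log2 differences from -0.55 to 0.40) were named after their values were seen. In the lists of related genes it names those at least 2-fold different, or the 3 with the largest difference. Members, lists and rules were chosen with earlier results of these data known. Alternatives covered the floor, the scaling, the choice of probe set and the size rule. The steps were tested on simulated signals, with planted changes larger than any member's difference and only in genes well above the floor. Smaller changes, changes near the floor and the recentrings were not covered by it. Scripts ran in Python 3.11.15 with numpy 2.4.6, pandas 2.3.3 and statsmodels 0.14.6.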

Additional observations from a re-analysis of the deposited data

How the results depend on the processing

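The median log2 difference of the measured members was -0.37 as reported and stayed below 0 under every alternative but one. A floor at the 60th percentile gave -0.65, and the others were -0.41 with a pseudocount of 32, -0.47 after median or 75th percentile centring, -0.46 after quantile normalization, -0.47 after removal of a loess trend, -0.47 when probe sets of a gene were averaged, -0.49 when the set of median difference was taken, -0.39 as a mean, and -1.03 after recentring on glomerular markers. Recentring on proximal tubule markers turned it to 0.40, because that setting adds 0.77 to every gene, and the median of all measured genes then stood at 0.84.

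The count of members at least 2-fold lower, 10 as reported, ran from 7 to 12 under the other floors, scalings and probe set choices, with changes in which genes were counted, apart from the recentrings, which gave 26 (glomerular) and 0 (proximal tubule). The count at least 2-fold higher, 1 as reported, was 0 with that higher floor, 3 without a floor, 0 after glomerular and 8 after proximal tubule recentring. After quantile normalization the 10 lacked Slc22a2 and Slc47a1 and held Slc22a4 and Slc22a7 in their place, and after loess they also lacked Slc22a8 (-0.98) and held Abcg4. A rule of 1.5-fold gave 22 lower and 5 higher, and a rule of 3-fold gave 0 and 0. Of the 48 measured members, 22 kept their direction under each setting that measured them, though other floors and a pseudocount cannot reverse a direction. The other 26 turned round under 1 of the recentrings, which add a constant to every gene. Of these 26, Abcb9, Abcc5 and Abcc9 also turned round with another choice of probe set, and none did under median, 75th percentile, quantile or loess scaling. No paired analysis was possible because each genotype had 1 array. Signals near the floor limit what can be seen of the dimmer members, and no error between mice can be had.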

Other observations

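Slc22a18 lies in a group of imprinted genes on chromosome 7, and its neighbours did not share one direction. Phlda2, the next protein-coding gene on one side, read 232 in the double knockout, against 518 in the floxed control (2.24-fold lower), close to the 2.33-fold lower value of Slc22a18. Cdkn1c, the next gene on the other side and also a podocyte marker, read 10997.5 in the double knockout, against 8224 in the floxed control (1.34-fold higher). Kcnq1 was 1.35-fold lower and Nap1l4 1.14-fold higher. Each of these neighbours had 1 probe set, and they were chosen after the value of Slc22a18 was seen.

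Other genes of prostaglandin handling, also chosen after the values of Slco2a1 and Slc22a22 were seen, stood as follows. Ptgis, which encodes prostacyclin synthase, read 591 in the double knockout, against 368 in the floxed control (1.61-fold higher), and Ptgds, a prostaglandin D synthase, read 4874 in the double knockout, against 3324 in the floxed control (1.47-fold higher, with 0.68 on the log2 scale in its second probe set). The receptor gene Ptger4 read 2160.5 in the double knockout, against 1513 in the floxed control (1.43-fold higher), and Ptgs2, the inducible cyclooxygenase, was at least 1.55-fold higher with a floxed control signal below the floor. Hpgd, which breaks down prostaglandins after uptake, read 247 in the double knockout, against 334 in the floxed control (1.35-fold lower). Ptges, a prostaglandin E synthase, was 1.30-fold lower, with -0.01 and -0.50 on the log2 scale in its other probe sets. The receptor genes Ptger2 and Ptger3, the latter from the tubule marker lists, were at 0.26 and -0.60 on the log2 scale. Glomerular recentring subtracts 0.65. With the floor applied, Ptgds (0.55), Ptger4 (0.51), Ptgs2 (0.63) and Ptger2 then turn below 0, and Ptgis (0.68) stays just above. Proximal tubule recentring adds 0.77 and turns Hpgd (-0.44), Ptges (-0.38) and Ptger3 above 0.

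Lcn2, the ligand of the receptor encoded by Slc22a17, read 3359 in the double knockout, against 920.3 in the floxed control (3.65-fold higher), beside a log2 difference of -0.03 for Slc22a17.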
